A study of Homo sapiens with 10 samples.

Results

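The genes described here are 28 that make cholesterol and fatty acids, or set how much of their enzymes a cell makes. They were chosen by symbol from a fixed list, with all rows of a symbol summed, and they are 28 of the 35940 gene symbols in the count table. By role they comprise 7 genes of the mevalonate pathway, 3 that lead from farnesyl diphosphate to lanosterol, 9 that turn lanosterol into cholesterol, 4 for regulation and sterol transport, and 5 for fatty acid synthesis and desaturation. The first 4 roles are called the 23 sterol genes below, although SREBF1 also drives fatty acid genes. Their levels were compared across 10 bulk RNA sequencing libraries of wild-type ESI017, an established line of human embryonic stem cells, all kept in the defined medium mTeSR1. Untreated cells (mTeSR1) had 2 libraries, as did each treated group: WNT3A at 300 ng/ml for 6 h, WNT3A for 18 h, CHIR99021 at 8 µM for 6 h, and CHIR99021 for 18 h. WNT3A is the ligand that opens canonical WNT signalling at the cell surface. CHIR99021 inhibits GSK3, the kinase that otherwise sends β-catenin to destruction, so it acts inside the cell, and the design sets these routes of activation side by side. Treatment began 24 h after plating.

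The study was run in 2 biological repeats. Each of mTeSR1, WNT3A 6 h, WNT3A 18 h and CHIR99021 6 h had 1 library from each repeat. Both CHIR99021 18 h libraries came from repeat 2, so comparisons with that group were fitted with the repeat as a term. All cells were of 1 line, no solvent control for CHIR99021 is listed, and mTeSR1 carries no time label. Differences from mTeSR1 can therefore not be told apart from time in culture or, for CHIR99021, from solvent. The labels do not say whether the libraries of a repeat came from separately treated wells, so p-values measure only the spread between these libraries. In bulk RNA, fewer cells with a transcript and less transcript per cell cannot be told apart.

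Cholesterol is built from acetyl-CoA through mevalonate, isoprenoid diphosphates, squalene and lanosterol, and the same acetyl-CoA feeds fatty acid synthesis. The genes are under shared control by the SREBP transcription factors, encoded by SREBF1 and SREBF2. When membrane sterols run low, SREBPs leave the endoplasmic reticulum with their escort SCAP, are cut in the Golgi, and switch on sterol and fatty acid genes. When sterols are ample, INSIG proteins hold the complex back. Nuclear SREBP is also known as a substrate that GSK3 marks for degradation through the ubiquitin ligase subunit FBXW7, which is the background for comparing a GSK3 inhibitor with a WNT ligand on these genes.

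Library totals lay between 1.66e+07 and 2.67e+07 estimated counts. Levels are given as CPM, the count of a gene as a share of its library's total, with totals scaled between libraries by the trimmed mean of M-values (TMM). Library values are listed with repeat 1 first, except for CHIR99021 18 h, where both are of repeat 2. AXIN2, a feedback target of β-catenin, was higher in every treated library than in both untreated ones: it stood at 39.3 and 31.8 CPM in mTeSR1, 250 and 184 after WNT3A 6 h, 104 and 112 after CHIR99021 6 h, 211 and 168 after WNT3A 18 h, and 120 and 249 after CHIR99021 18 h. SP5 and NKD1, other WNT targets, were likewise above both untreated libraries in every treated library. All 8 WNT feedback genes of the list they belong to were above the untreated libraries, without overlap, after WNT3A at either time. The same held after CHIR99021 18 h. After CHIR99021 6 h it held for 6, while NOTUM and ZNRF3 overlapped with untreated cells. Without overlap, 13.7% of all genes were higher after WNT3A 6 h and 21.8% after WNT3A 18 h. The shares were 16.5% after CHIR99021 6 h and 24.2% after CHIR99021 18 h. All 8 were lower in the first CHIR99021 18 h library than in the second: SP5 at 135 and 370 CPM, NKD1 at 49.6 and 190, LEF1 at 5.31 and 56.3. After CHIR99021 6 h NKD1 was at 48.2 and 41.8 CPM and LEF1 at 5.52 and 2.05. All 8 pluripotency markers were above 1 CPM in both libraries of every group, a floor that does not show changes above it. DNMT3B was at 2431 and 2570 CPM in mTeSR1, 1354 and 1211 after WNT3A 18 h, and 1522 and 937 after CHIR99021 18 h. SOX2 was at 342 and 265, 288 and 340, and 380 and 331 CPM in the same groups. The sum of 6 primitive streak markers was 2.14 to 3.23 CPM in mTeSR1, 72.7 to 75.9 after WNT3A 6 h, 6.71 to 9.17 after CHIR99021 6 h, 233 to 242 after WNT3A 18 h, and 22.98 to 210 after CHIR99021 18 h. TBXT, EOMES and MIXL1 made up most of this sum in the treated libraries. TBXT, GSC and MESP1 had no counts in mTeSR1, but MESP1 reached at most 0.472 CPM and GSC at most 1.84 in any library. TBX6 was at 1.67 and 1.65 CPM in mTeSR1 and between 0.379 and 1.73 in the treated libraries. The 13 mitochondrially encoded transcripts held 2.70% to 6.73% of the counts of a library. The part of these markers and transcripts in the differences below was not tested. In the repeat 2 libraries of mTeSR1 and WNT3A 6 h, genes with long transcripts stood above their mean level: the Spearman correlation across genes of the log2 deviation with transcript length was 0.349 and 0.448 there and between -0.293 and -0.0130 in the other 8 libraries. The fatty acid genes have long transcripts.

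All 28 genes were expressed in untreated stem cells, and all passed the filter on low counts that 15251 genes passed. Levels of different genes were compared per kilobase of the longest annotated transcript. SCD, the desaturase that places the first double bond in a saturated fatty acid, was highest at 425 ± 90.6 CPM per kb (SD, n = 2), followed by FASN, the synthase that assembles palmitate, at 373 ± 74.8. Their ranges overlapped. FADS2, a desaturase of polyunsaturated fatty acids, followed at 188 ± 32.9, clear of both its neighbours in the order, FASN and FDFT1. The highest sterol enzymes were FDFT1, squalene synthase, at 159 ± 1.55 CPM per kb and HMGCS1, which makes HMG-CoA, at 144 ± 14.6. At the low end stood STARD4, a carrier of cholesterol between membranes, at 11.6 ± 1.12, MVK, which phosphorylates mevalonate, at 6.40 ± 0.554, and HSD17B7, a sterol ketoreductase, at 5.40 ± 0.75. Of the 27 neighbouring pairs in this order, 13 had ranges that did not overlap. Across all 10 libraries the highest CPM of a gene was between 1.22 times (FDFT1) and 2.21 times (PMVK) its lowest.

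**Figure D1:**
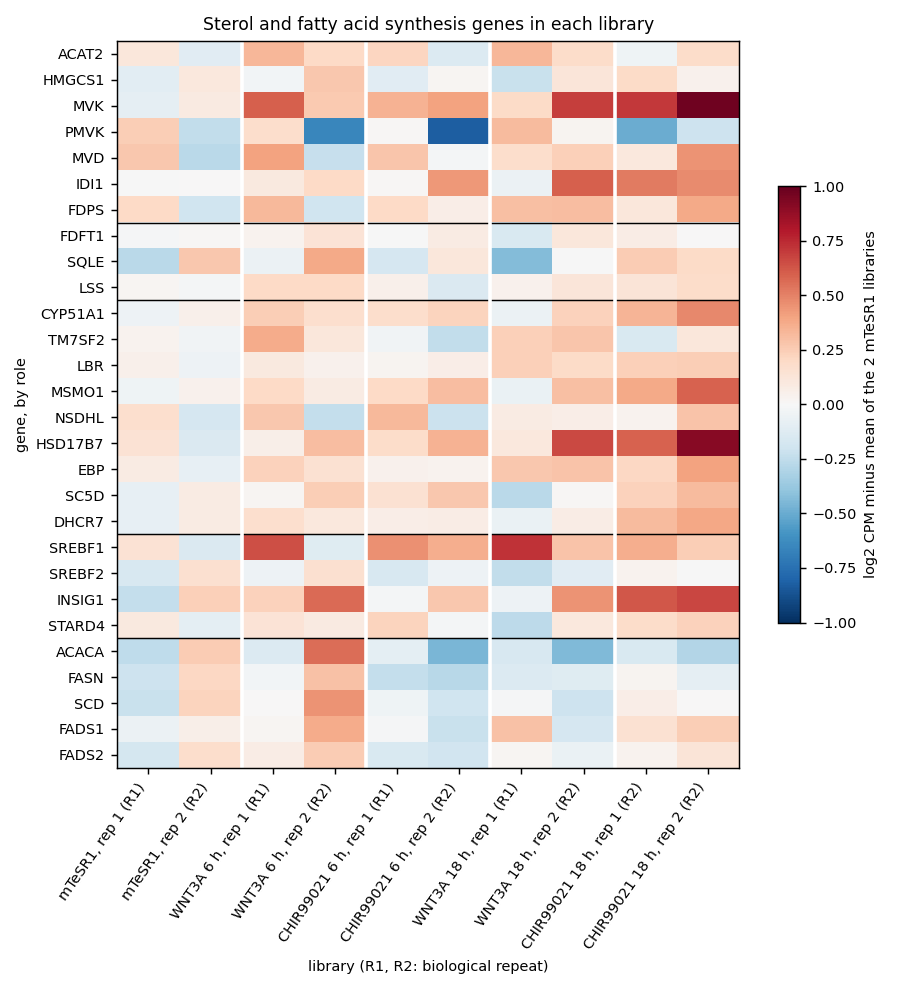
Heat map of the 28 genes (rows, by role) in the 10 libraries (columns, R1 and R2 for the biological repeat). Colour is the log2 CPM of a library minus the mean of both mTeSR1 libraries, red above and blue below. MVK, HSD17B7 and INSIG1 are red in both CHIR99021 18 h libraries, PMVK is blue in 5 of the 6 libraries of repeat 2, and the fatty acid genes are red in the repeat 2 libraries of mTeSR1 and WNT3A 6 h.

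In the mevalonate pathway, MVK stood at 24.7 and 27.9 CPM in mTeSR1, 39.7 and 31.5 after WNT3A 6 h, 33.4 and 34.6 after CHIR99021 6 h, 30.04 and 42.4 after WNT3A 18 h, and 42.9 and 51.5 after CHIR99021 18 h. Both untreated libraries were below all 8 treated ones, and both CHIR99021 18 h libraries were above all others. PMVK, the next kinase of the pathway, was between 11.3 and 24.9 CPM and did not follow MVK: its lowest libraries were those of repeat 2 after CHIR99021 6 h, at 11.3, and WNT3A 6 h, at 12.7. MVD, the decarboxylase that yields isopentenyl diphosphate, was at 168 and 115 CPM in mTeSR1 and at 150 and 190 after CHIR99021 18 h, so that these groups overlapped. IDI1, the isomerase of that product, was at 90.9 and 91.6 CPM in mTeSR1, at 87.4 and 138 after WNT3A 18 h, and at 131 and 126 after CHIR99021 18 h. IDI1 was thus high in the repeat 2 library of WNT3A 18 h but not in that of repeat 1. The thiolase ACAT2 (249 to 344 CPM), HMGCS1 (430 to 605) and FDPS (186 to 278), which makes farnesyl diphosphate, had mTeSR1 libraries inside or beside the range of the treated ones.

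Between farnesyl diphosphate and lanosterol, FDFT1 and LSS varied little. FDFT1 ranged from 380 to 463 CPM over the 10 libraries, and LSS, the cyclase that closes the sterol rings, from 310 to 393. SQLE, which adds the oxygen that LSS needs, was at 206 and 300 CPM in mTeSR1, 238 and 324 after WNT3A 6 h, 222 and 268 after CHIR99021 6 h, 185 and 249 after WNT3A 18 h, and 296 and 284 after CHIR99021 18 h. Each repeat 2 library of SQLE was above each repeat 1 library, whatever the treatment.

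Among the 9 genes from lanosterol to cholesterol, 7 had their highest library in CHIR99021 18 h, TM7SF2 and NSDHL being the exceptions. HSD17B7 stood at 18.3 and 15.0 CPM in mTeSR1, 17.3 and 20.5 after WNT3A 6 h, 18.8 and 21.1 after CHIR99021 6 h, 17.9 and 26.3 after WNT3A 18 h, and 25.0 and 31.3 after CHIR99021 18 h. Both CHIR99021 18 h libraries were above both untreated ones, and 1 of them was below the repeat 2 library of WNT3A 18 h. MSMO1, the oxidase that works in the same demethylation of sterols as HSD17B7 and NSDHL, was at 87.8 and 93.0 CPM in mTeSR1, 86.3 and 112 after WNT3A 18 h, and 118 and 136 after CHIR99021 18 h. DHCR7, the last reductase of one branch to cholesterol, was at 243 and 272 CPM in mTeSR1, 290 and 276 after WNT3A 6 h, 270 and 270 after CHIR99021 6 h, 246 and 271 after WNT3A 18 h, and 320 and 337 after CHIR99021 18 h. For MSMO1 and DHCR7 both CHIR99021 18 h libraries were above every other library. CYP51A1, the lanosterol demethylase, ranged from 154 to 224 CPM and also had both of its highest libraries in CHIR99021 18 h. The isomerase EBP (63.1 to 88.1 CPM), the desaturase SC5D (96.8 to 146) and the dehydrogenase NSDHL (37.2 to 54.9) ranged less widely than HSD17B7. TM7SF2 and LBR carry out the same sterol reduction, and LBR also tethers chromatin to the nuclear envelope. TM7SF2 lay between 51.2 and 78.7 CPM, lowest after CHIR99021 6 h, and LBR between 111 and 137.

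Of the regulators, INSIG1, itself a target of SREBP, stood at 65.0 and 90.9 CPM in mTeSR1, 90.4 and 114 after WNT3A 6 h, 75.9 and 92.6 after CHIR99021 6 h, 74.4 and 105 after WNT3A 18 h, and 118 and 122 after CHIR99021 18 h. Both CHIR99021 18 h libraries were the highest, and within each treatment of the other 4 groups the repeat 2 library was above that of repeat 1. SREBF1 stood at 181 and 148 CPM in mTeSR1, 256 and 151 after WNT3A 6 h, 224 and 210 after CHIR99021 6 h, 271 and 199 after WNT3A 18 h, and 210 and 194 after CHIR99021 18 h. Its highest libraries were both from WNT3A in repeat 1. SREBF2, the main factor for sterol genes, ranged from 406 to 537 CPM and STARD4 from 44.5 to 62.5, with untreated and treated libraries mixed.

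Of the fatty acid genes, FASN, SCD and FADS2 were the most abundant of the 28 in untreated cells, and FADS1 and ACACA stood lower. FASN was at 2740.2 and 3646 CPM in mTeSR1, 3105 and 3882 after WNT3A 6 h, 2678 and 2602 after CHIR99021 6 h, 2883 and 2903 after WNT3A 18 h, and 3218 and 2963 after CHIR99021 18 h. SCD was at 1937 and 2624 CPM in mTeSR1, 2264 and 3070.2 after WNT3A 6 h, 2187 and 1967 after CHIR99021 6 h, 2234 and 1958 after WNT3A 18 h, and 2361 and 2266 after CHIR99021 18 h. For both, the highest libraries were the repeat 2 libraries of WNT3A 6 h and mTeSR1. ACACA, the carboxylase that makes malonyl-CoA for FASN, had its highest values in the same libraries, 559 and 454 CPM, against 276 to 354 in the other 8. FADS1 and FADS2, neighbouring desaturases on chromosome 11, ranged from 254 to 381 and from 827 to 1128 CPM, each highest in the repeat 2 library of WNT3A 6 h.

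**Figure D2:**
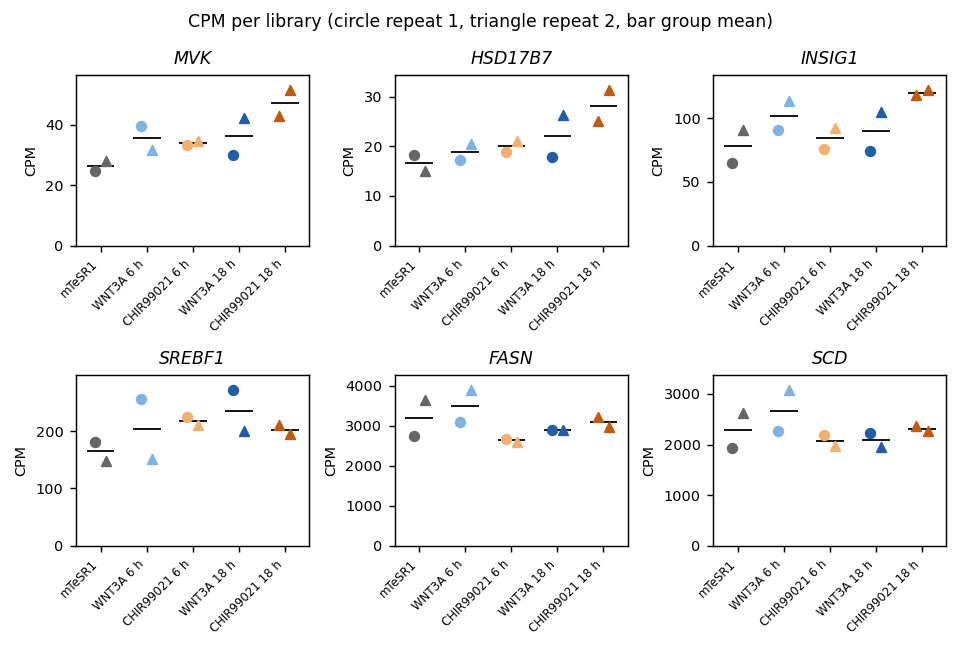
CPM of 6 genes in each library by group, circles for repeat 1, triangles for repeat 2, horizontal bars for the mean of a group (n = 2), with axes that start at 0. MVK, HSD17B7 and INSIG1 have their highest group mean in CHIR99021 18 h, while FASN and SCD have their highest single library in repeat 2 of WNT3A 6 h.

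CHIR99021 and WNT3A were then compared at the same time. At 6 h none of the 28 genes differed between the treatments by edgeR's quasi-likelihood test at a Benjamini-Hochberg adjusted p (FDR, over all genes tested) under 0.05. Over all genes 1 gene did, 0.00656% of those tested. DESeq2 called 0 of the 28 and 30 genes of the table. At an unadjusted p under 0.05 the edgeR test gave 1 of the 28, TM7SF2, against 6.53% of all genes. TM7SF2 was at 59.4 and 51.2 CPM after CHIR99021 and at 78.7 and 65.8 after WNT3A, a log2 difference of -0.38 ± 0.15 (SE, edgeR FDR 0.691), with no overlap of the groups. The 95% intervals of 27 of the 28 differences lay within 1 log2 unit on either side of 0, that is, within a 2-fold difference. The exception was ACACA, at -0.52 with an interval of -1.12 to 0.08.

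At 6 h the 23 sterol genes had a median log2 difference, CHIR99021 minus WNT3A, of -0.05 against -0.01 over all genes, with 8 of them above 0. These 8 were all of the 28 that lay above 0, where 48.9% of all genes did. In both repeats alike, 15 of the 28 were lower after CHIR99021 and 4 higher (11 and 4 of the sterol genes), where 28.4% of all genes were lower and 27.5% higher. MVK differed by -0.07 (interval -0.52 to 0.39), INSIG1 by -0.28 (-0.79 to 0.23) and SREBF1 by 0.10 (-0.48 to 0.67). All 5 fatty acid genes were lower after CHIR99021, with a median of -0.36: ACACA -0.52, FASN -0.40, SCD -0.36, FADS2 -0.34 and FADS1 -0.32. The groups did not overlap for 4 of them, ACACA being the exception, and over all 28 genes this held for 9 lower and 1 higher, where it held for 18.0% and 16.5% of all genes. Within repeat 1 the median of the 5 was -0.05 and within repeat 2 it was -0.59. Repeat 2 is where the WNT3A 6 h library was tilted towards long transcripts. Without that library the median of the 5 was -0.14 and that of the sterol genes -0.10, and with an offset for transcript length they were -0.27 and -0.07. Without the repeat 1 library of WNT3A 6 h they were -0.56 and -0.03. Of the mitochondrially encoded transcripts, 2 of 13 lay above 0, with a median of -0.42.

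At 18 h none of the 28 genes passed, and no gene of the table did (0.0%), by the edgeR test with the repeat as a term. DESeq2 called 0 of the 28 and 9 genes of the table. At an unadjusted p under 0.05 there were 2, SC5D and DHCR7, against 4.12% of all genes. SC5D was at 137 and 146 CPM after CHIR99021 and at 96.8 and 118 after WNT3A, a log2 difference of 0.31 ± 0.11 (SE, edgeR FDR 1). DHCR7 differed by 0.32 ± 0.12 (edgeR FDR 1). All 28 intervals lay within 1 log2 unit of 0. All 13 mitochondrially encoded transcripts lay above 0 in this comparison, with a median of 0.38.

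The direction at 18 h was toward higher levels after CHIR99021 for 22 of the 28 genes, where 50.4% of all genes lay above 0, and the median was 0.08 against 0.00 over all genes. Of the 9 genes from lanosterol to cholesterol 8 lay above 0, with a median of 0.28, and TM7SF2 was the exception at -0.21. Against the repeat 2 library of WNT3A 18 h alone, most were smaller: DHCR7 was at 0.28, SC5D at 0.26, and CYP51A1 and MSMO1 at 0.18. NSDHL and HSD17B7 were at 0.09 there, LBR at 0.05, EBP at 0.01 and TM7SF2 at -0.30. MVK (0.34, interval -0.12 to 0.80), MSMO1 (0.31, -0.03 to 0.64), STARD4 (0.29, -0.09 to 0.66), CYP51A1 (0.28, -0.02 to 0.58) and INSIG1 (0.24, -0.02 to 0.51) were among the larger differences. The values of MVK and MSMO1 turned on single WNT3A libraries: MVK was at 0.16 without that of repeat 1 and 0.69 without that of repeat 2, and MSMO1 at 0.18 and 0.53. PMVK was the lowest at -0.22 (-0.67 to 0.23). SREBF1 (0.00), FDFT1 (0.00), FASN (0.01) and ACACA (-0.01) had estimates near 0. The intervals of the 5 fatty acid genes reached from -0.63 to 0.61. The fatty acid median was 0.05, and it was 0.22 without the WNT3A 18 h library of repeat 1 and -0.18 without that of repeat 2. The sterol median was 0.10, and it was 0.06 and 0.31 in these settings. The groups did not overlap for 14 genes that were higher and 3 that were lower, against 18.6% and 20.6% of all genes. That count mixes the repeats, since WNT3A 18 h has a library of repeat 1 and CHIR99021 18 h has none. Within repeat 2, both CHIR99021 libraries were above the WNT3A library for 16 of the 28 genes and below it for 5, where 32.6% of all genes were above and 34.3% below.

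**Figure D3:**
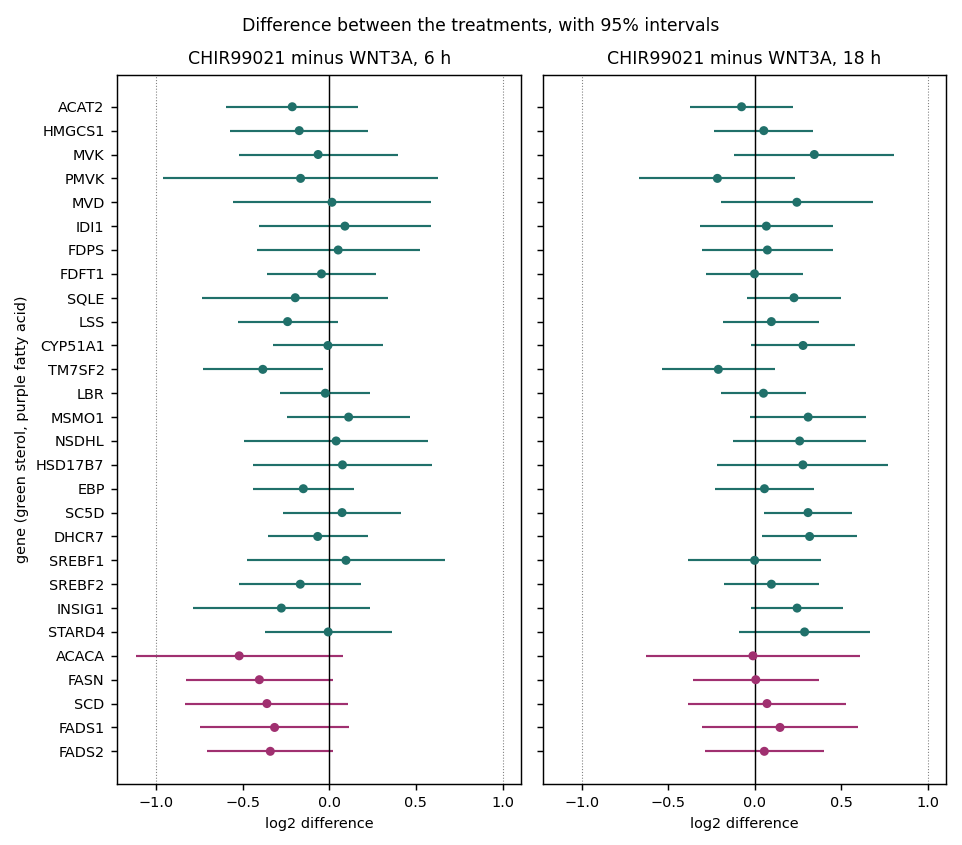
Log2 difference of each gene between the treatments, CHIR99021 minus WNT3A, at 6 h (left) and 18 h (right). Points are estimates and bars 95% intervals from edgeR, green for sterol genes and purple for fatty acid genes, with dotted lines at 1 log2 unit. The purple points lie left of 0 at 6 h and near 0 at 18 h, and most green points at 18 h lie right of 0.

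Whether the difference between the treatments itself changed from 6 h to 18 h was tested as an interaction. None of the 28 genes passed and none of the table did (0.0%) by edgeR, and DESeq2 called 0 of the 28 and 12 genes of the table. At an unadjusted p under 0.05 there were 3, INSIG1, SQLE and DHCR7, against 3.76% of all genes. INSIG1 had the largest interaction, 0.52 ± 0.16 on the log2 scale (SE, 95% interval 0.15 to 0.89, edgeR FDR 0.927), from a difference of -0.28 at 6 h to one of 0.24 at 18 h. SQLE (0.41) and DHCR7 (0.38) followed among those with p under 0.05. The interaction was above 0 for 25 of the 28 genes, where it was for 50.7% of all genes, and its median was 0.23 against 0.01 over all genes. It was 0.42 for the fatty acid genes and 0.21 for the sterol genes, and 0.27 and 0.24 without both libraries tilted by length. Leaving out 1 library moved the fatty acid median between 0.15 (without WNT3A 18 h of repeat 2) and 0.68 (without WNT3A 6 h of repeat 1). It moved the sterol median between 0.09 and 0.32 (without the second CHIR99021 18 h library and without WNT3A 18 h of repeat 2). The mitochondrially encoded transcripts had a larger interaction in the same direction, with 13 of 13 above 0, a median of 0.76 and 10 at an unadjusted p under 0.05. Both 18 h and 6 h differences of a gene enter its interaction, so these values are no further evidence beside the ones above.

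Against untreated cells, WNT3A at 6 h left every gene of the set without a call. By edgeR 0 of the 28 passed, where 0.433% of all genes did (0.387% higher and 0.0459% lower), and DESeq2 called 0 of the 28 and 249 genes of the table. None had an unadjusted p under 0.05, where 6.16% of all genes did. The smallest p belonged to MVK, at a log2 difference of 0.44 ± 0.20 (SE, edgeR FDR 0.861). INSIG1 stood 0.39 above untreated cells, SREBF1 0.31, ACAT2 0.26 and TM7SF2 0.25. The differences were small but mostly of 1 sign: 27 of the 28 were above 0, where 51.1% of all genes were, with a median of 0.15 against 0.01. The repeat 2 libraries of both groups are those tilted towards long transcripts. Leaving out 1 library left 22 to 24 of the 28 above 0. It moved the fatty acid median, 0.20, between -0.03 (without mTeSR1 of repeat 1) and 0.37 (without WNT3A 6 h of repeat 1). The sterol median was 0.14, and 0.15 to 0.20 without 1 library. In both repeats alike, 25 of the 28 were higher and 1, PMVK, was lower, where 31.8% of all genes were higher and 30.6% lower. The groups did not overlap for 10 that were higher and 0 that were lower, against 13.7% and 12.0% of all genes.

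CHIR99021 at 6 h gave 0 calls among the 28 by edgeR, where 0.0197% of all genes were called, and 0 by DESeq2, which called 65 genes of the table. None had an unadjusted p under 0.05, against 4.74% of all genes. The median difference from untreated cells was 0.05 against 0.01 over all genes, with 17 of the 28 above 0. In both repeats alike, 11 were higher and 5 lower, where 28% and 26.0% of all genes were. MVK (0.37), SREBF1 (0.40) and MSMO1 (0.25) were the highest with IDI1 (0.24) and HSD17B7 (0.26), and PMVK was the lowest at -0.37. All 5 fatty acid genes were below 0, with a median of -0.19, which was -0.01 when the untreated library of repeat 2, tilted towards long transcripts, was left out. WNT3A and CHIR99021 at 6 h share the untreated libraries, so their values stand side by side without a comparison of their directions.

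WNT3A at 18 h also gave 0 calls among the 28, by edgeR, where 2.1% of all genes were called (1.04% higher and 1.06% lower), and by DESeq2, which called 810 genes. None had an unadjusted p under 0.05, against 13.6% of all genes. MVK was 0.46 above untreated cells (SE 0.20, edgeR FDR 0.37), SREBF1 0.52 (-0.06 to 1.09), HSD17B7 0.40 (-0.12 to 0.93) and EBP 0.28 (-0.01 to 0.57). The median over the 28 genes was 0.09 against 0.02, with 18 above 0, where 52.3% of all genes were. In both repeats alike, 10 were higher and 3 lower, where 31.3% and 28.6% of all genes were. The sterol genes had a median of -0.01 in repeat 1 and 0.24 in repeat 2, and the fatty acid genes 0.20 in repeat 1 and -0.33 in repeat 2, where the untreated library is tilted towards long transcripts. Over both repeats the fatty acid median was -0.12, and it was 0.11 without that untreated library and 0.02 with the length offset.

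For CHIR99021 at 18 h against untreated cells, by edgeR 0 of the 28 genes passed, where 2.78% of all genes did (1.15% higher and 1.63% lower), and DESeq2 called 1, MVK, among 918 genes. At an unadjusted p under 0.05 there were 10, all sterol genes and all higher, where 19.6% of all genes had such a p. The mean of MVK was 26.3 ± 2.28 CPM in untreated cells and 47.2 ± 6.09 after CHIR99021 (SD, n = 2), a log2 difference of 0.80 ± 0.21 (SE, interval 0.33 to 1.27, edgeR FDR 0.0853). The FDR of MVK was 0.0207 by DESeq2 and ranged from 0.0207 to 0.563 over the alternatives tried, and the highest was without the repeat 2 library of mTeSR1.

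INSIG1 came next, at 78.0 ± 18.3 CPM untreated and 120 ± 2.74 after CHIR99021, a log2 difference of 0.44 ± 0.12 (SE, interval 0.18 to 0.71, edgeR FDR 0.0907). HSD17B7 differed by 0.66 (0.15 to 1.17), SREBF1 by 0.50 (0.12 to 0.89), MVD by 0.46 (0.01 to 0.91) and MSMO1 by 0.43 (0.09 to 0.77). The value of HSD17B7 rested on 1 untreated library: without the repeat 2 library of mTeSR1 it was 0.30. MVD was at 0.28 without the second CHIR99021 library and 0.14 without both libraries tilted by length, and SREBF1 at 0.30 without the repeat as a term. EBP was at 0.19 with the length offset. CYP51A1 (0.37), EBP (0.34), DHCR7 (0.32) and LBR (0.26) complete the 10. These include 6 of the 9 genes from lanosterol to cholesterol, all 9 of which were above 0. In contrast HMGCS1 (0.00), SQLE (0.01), FDFT1 (-0.02) and SREBF2 (-0.08) had estimates near 0. The 23 sterol genes had a median of 0.32 and the 5 fatty acid genes of -0.04, where all genes had 0.02. Over the 28, 21 were above 0, where 51.6% of all genes were, and the groups did not overlap for 14 that were higher and 0 that were lower, against 24.2% and 22.7%. Within repeat 2, both CHIR99021 libraries were above the untreated library for 18 of the 28 genes and below it for 6, against 43.1% and 40.9% of all genes. Without the repeat 2 libraries of mTeSR1 and WNT3A 6 h the fatty acid median turned to 0.36 and the sterol median was 0.20, and without that of mTeSR1 alone they were 0.22 and 0.21.

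From 6 h to 18 h the treatments were also compared with themselves. For CHIR99021, 25 of the 28 genes were above 0, where 50.4% of all genes were, with a median of 0.19 against 0.00. By edgeR 0 of the 28 were called, where 0.00656% of all genes were, and by DESeq2 0 of the 28 and 133 genes of the table. An unadjusted p under 0.05 was reached by INSIG1 (0.32, edgeR FDR 0.579) and EBP (0.30, edgeR FDR 0.688), against 6.85% of all genes. MVK (0.42), HSD17B7 (0.41) and PMVK (0.36) had the largest values. HSD17B7 was at 0.24 without the second 18 h library, and PMVK at 0.00 without the repeat as a term. Within repeat 2, which holds both 18 h libraries, both were above the 6 h library for 25 of the 28 genes and below it for 2. Of all genes, 33.7% were above and 35.5% below. Without that 6 h library, 19 of the 28 were above 0 in the edgeR fit. The fatty acid median was then -0.04 and the sterol median 0.18, against 0.14 and 0.19 with it.

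For WNT3A from 6 h to 18 h the median was -0.11 against 0.00 over all genes, and 11 of the 28 genes were above 0. By edgeR 0 of the 28 were called, where 0.144% of all genes were, by DESeq2 0 of the 28 and 415 genes of the table, and none had an unadjusted p under 0.05, against 13.2% of all genes. The fatty acid genes had a median of -0.27, with ACACA at -0.54 (interval -1.14 to 0.05), and the sterol genes of 0.00. Without the repeat 2 library of WNT3A 6 h these medians were -0.10 and -0.11, and without that of WNT3A 18 h they were -0.26 and -0.20.

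Calls among the 28 genes were made for the biological repeat. With the treatment groups held fixed in the edgeR fit, 3 of the 28 genes differed between repeats at an FDR under 0.05, where 5.96% of all genes did. SQLE was 0.42 ± 0.08 higher in repeat 2 (log2, SE, edgeR FDR 0.0258) and INSIG1 0.40 ± 0.08 higher (FDR 0.0287). PMVK was lower, with a log2 difference of -0.61 ± 0.13 (FDR 0.0378). A further 9 genes had an unadjusted p under 0.05, among them SREBF1 (-0.40), MVD (-0.35), NSDHL (-0.35), IDI1 (0.30) and HMGCS1 (0.25). With these, 12 of the 28 were at that level, where 26.7% of all genes were. INSIG1 is thus a gene for which the repeat has to be held fixed: its difference between CHIR99021 18 h and mTeSR1 was 0.44 with the repeat as a term and 0.62 without it.

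The fatty acid genes had their highest medians in both libraries tilted towards long transcripts, and the sterol genes had theirs in CHIR99021 18 h. The longest transcripts of the 5 fatty acid genes had a median length of 5362 bases (4525 to 9961), and those of the 23 sterol genes 3010 (1280 to 5699). In the repeat 2 library of WNT3A 6 h the fatty acid genes had a median log2 deviation of 0.354 from their mean over all libraries, and in that of mTeSR1 0.212, while the sterol genes were at -0.0103 and -0.158. With the length offset subtracted from the log2 CPM these fatty acid medians were 0.230 and 0.111. The lowest fatty acid medians, -0.224 and -0.210, were those of the repeat 2 libraries of CHIR99021 6 h and WNT3A 18 h, which had the most negative length correlations, -0.251 and -0.293. What set the tilt of these libraries, and the part of the tilt in the fatty acid medians, was not tested.

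**Figure D4:**
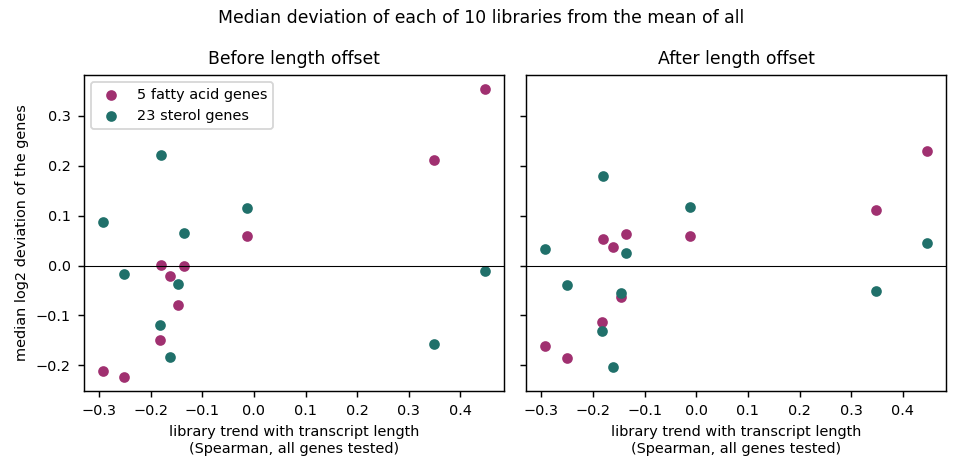
Median log2 deviation of the 5 fatty acid genes (purple) and 23 sterol genes (green) in each library, plotted against that library's Spearman correlation of deviation with transcript length over all genes tested, before (left) and after (right) an offset for length. The 2 libraries at the right, mTeSR1 and WNT3A 6 h of repeat 2, carry the highest purple points, at 0.212 and 0.354 before the offset and 0.111 and 0.230 after it.

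Promoter sequence was examined because the sterol genes share a regulator and many leaned the same way at 18 h of CHIR99021. RefSeq promoters on GRCh38.p14 matched 24 of the 28 genes, and the 250 bases before each start site were searched on both strands. The core of a classical sterol regulatory element, TCACNCCA, occurred in 3 of the 24, MVK, MSMO1 and SREBF2, or 12.5%, against 3.18% of 27305 promoters. The box CCAAT, the core bound by NF-Y, a partner of SREBP, occurred in 16, or 66.7%, against 33.0%. CTTTGA, a core of TCF and LEF sites, occurred in 1, LBR, or 4.17%, against 11.4%. The stretches below show the sterol core, where there is one, and the NF-Y box nearest to it, in capitals. INSIG1 is shown as 1 example of a promoter with the box and no match to the core in this window, as was the case for most of the 16.
MVK: tttATTGGttcgcagttcTCACCCCAggg
MSMO1: atccTCACTCCAtccgcggagCCAATggct
SREBF2: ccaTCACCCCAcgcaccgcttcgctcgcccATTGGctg
INSIG1: ccggcctcccATTGGttgcggccgc
All 4 are on the plus strand of GRCh38.p14, MVK at chr12:109573581-109573609, MSMO1 at chr4:165327509-165327538, SREBF2 at chr22:41832969-41833006 and INSIG1 at chr7:155297698-155297722. MVK and MSMO1 were among the 10 genes with an unadjusted p under 0.05 for CHIR99021 18 h against mTeSR1, at 0.80 and 0.43, and SREBF2, with the same core, stood at -0.08. A match is a run of letters and not a measured binding site, and whether matches go with the differences was not tested.

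The companion genes of the pathway were taken from 3 lists. Of 22 other genes of fatty acid and acetyl-CoA metabolism, edgeR called 1 higher and 0 lower after CHIR99021 18 h than in mTeSR1. Over all genes, 1.15% were called higher and 1.63% lower in that comparison. The called gene was LPIN1, a phosphatidate phosphatase, at 9.73 and 15.3 CPM in mTeSR1 and 22.5 and 28.1 after CHIR99021 18 h. Its log2 difference was 0.82 (edgeR FDR 0.0491). None of the 14 genes of SREBP processing and turnover, SCAP, GSK3A, GSK3B and FBXW7 among them, and none of the 6 genes of LXR and cholesterol efflux was called there. The efflux pumps ABCA1 and ABCG1 had the largest differences of that last list without a call. ABCA1 was at 26.6 and 10.04 CPM in mTeSR1 and 2.03 and 1.02 after CHIR99021 18 h, a log2 difference of -2.57 (edgeR FDR 0.0743), and it was also lower in repeat 2 than in repeat 1. In the other 8 comparisons of treatments none of the genes of these 3 lists was called by edgeR, where 0.0% to 2.1% of all genes were.

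Several counts rest on rows or exons that share reads. FDFT1 had 2 rows, 1 on the primary assembly and 1 off it, with 49.7% and 50.3% of its counts, and the share of the first ranged from 40.7% to 56.6% over the libraries, so their sum was used. ACACA had 14.8% of its counts in a row off the primary assembly, 4.64% and 3.82% in the libraries tilted by length and up to 27.1% in the others, and was summed likewise. A second row of LSS held no counts. The table also lists 15 pseudogenes of the 28 genes, with a highest count of 4.00 in any library. No source used here gives the strand setting of the counting. Without it, reads in exon bases shared by genes on opposite strands cannot be told apart. SOD2 and TCP1, with means of 110 and 351 CPM, share 26.5% and 9.23% of the exon bases of ACAT2. The same holds for FADS1 with FADS2, MVK with MMAB and SREBF1 with RAI1, at 4.79%, 4.72% and 6.92% of the exon bases of the first gene. On the same strand, CYP51A1 shares 79.4% of its exon bases with AC000120.2, which had a mean of 0.0306 CPM.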

How the data were processed

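The authors deposited estimated counts per gene, not whole numbers, for 10 libraries. The submitters' processing notes name Salmon 1.8.0 and GRCh38. No source used here gives the transcript set, the summing to genes or a filter. The members and lists were chosen with earlier results of these data known. Counts were summed over the rows of a symbol (37951 identifiers, 35940 symbols), and rounded. The robust quasi-likelihood test of edgeR 4.0.16 (R 4.3.3) was used, with TMM scaling and filterByExpr at a count of 10 (total of 15). All 10 libraries entered 1 fit, p-values were adjusted by Benjamini-Hochberg over 15251 genes, and an FDR under 0.05 is a call. Intervals are 95% and come from that fit. Log2 CPM used a prior count of 2. The length offset was a lowess curve per library with a span of 0.3, on the longest GENCODE release 29 transcript. DESeq2 1.42.0, DESeq2 size factors, no filter, identifiers kept apart, only the groups compared, the repeat as a block, the length offset, and leaving out each library were the alternatives. Leaving out both libraries tilted by length was added after the data were seen. The repeats are stated in the study's design text and pair the libraries. In a check, deviations from group means correlated at 0.261 to 0.595 between same-numbered libraries over 6 pairs of groups. The highest were mTeSR1 with WNT3A 6 h, at 0.595, and WNT3A 18 h with CHIR99021 6 h, at 0.472, and the rest reached 0.360. Of the counts above 0, 35.4% and 35.2% were whole numbers in mTeSR1 and WNT3A 6 h of repeat 2. In the other libraries of repeat 2 this share was 27.6% to 29.3%. The repeat term does not model such a split within repeat 2, and its source was not tested. No replicate pair agreed within sampling noise, with a chi-square per degree of freedom of 12.4 to 101. Named were all 28 genes, companion genes with an FDR under 0.05 (at most 6 a list), and AXIN2, SP5 and NKD1 as the check of treatment. ABCA1, ABCG1, SCAP, GSK3A, GSK3B and FBXW7 were named after their values were seen. A list of other genes of sterol synthesis and uptake is not reported here. The scripts were tested on simulated counts.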

Additional observations from a re-analysis of the deposited data

How the results depend on the processing

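Each comparison was recomputed under 12 to 16 settings. By edgeR and by DESeq2 the number of the 28 genes called was 0 in 8 of the 9 comparisons of treatments under every one, leave-one-out settings included. The exception was CHIR99021 18 h against mTeSR1, where 1 gene, MVK, was called by DESeq2 (FDR 0.0207), without the filter on low counts (0.0399), with only the groups compared (0.0477) and with the length offset (0.0437), and 0 otherwise. The MVK difference ranged from 0.66 to 0.93 and was 0.84 without the replicate block (FDR 0.101). Of 3276 recomputed values of the 28 genes, 298 had the opposite sign, none with a size above 0.339 in the report, and 268 moved by more than the standard error.

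The number of genes of the table that were called depended more on the setting. For CHIR99021 against WNT3A at 6 h it was 1, and 30 by DESeq2, 9 without the filter, 3 with only the groups compared, 2 with the length offset, 3 with the replicate block, 7 with the replicate block and the offset, 0 without any 1 library and 0 without both libraries tilted by length. For CHIR99021 against WNT3A at 18 h it was 0, and 9 by DESeq2, 1 per identifier, 0 to 6 without 1 library, 6 without both tilted libraries and 0 with no replicate block. For the change from 6 h to 18 h it was 0, and 12 by DESeq2, 1 without the filter, 1 per identifier, 0 to 6 without 1 library, 11 without both tilted libraries and 0 with no replicate block.

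For WNT3A 6 h against mTeSR1 it was 66, and 249 by DESeq2, 173 without the filter, 2 with only the groups compared, 104 with the offset, 168 with the replicate block, 286 with both, 13 to 70 without 1 library and 10 without both tilted libraries. For WNT3A 18 h against mTeSR1 it was 320, and 810, 576 without the filter, 751 with the replicate block, 1152 with block and offset, 53 to 75 without 1 library and 128 without both tilted libraries. For CHIR99021 6 h against mTeSR1 it was 3, and 65 by DESeq2, 32 without the filter, 1 per identifier, 16 with only the groups compared, 9 with the offset, 21 with the replicate block, 46 with both, 1 without any 1 library and 1 without both tilted libraries. For CHIR99021 18 h against mTeSR1 it was 424, and 918 by DESeq2, 254 per identifier, 1241 with only the groups compared, 788 with the offset, 181 with no replicate block, 10 to 522 without 1 library and 96 without both tilted libraries.

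For WNT3A from 6 h to 18 h it was 22, and 415 by DESeq2, 275 without the filter, 1 with only the groups compared, 77 with the offset, 279 with the replicate block, 577 with block and offset, 0 to 101 without 1 library and 0 without both tilted libraries. For CHIR99021 from 6 h to 18 h it was 1, and 133 by DESeq2, 21 without the filter, 0 per identifier, 0 with only the groups compared, 13 with the offset, 0 with no replicate block, 0 to 83 without 1 library and 29 without both tilted libraries. Fewer libraries entered the settings that leave some out. The cause of the other differences was not tested. A group of 2 libraries left with 1 was assumed to vary like the others.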
